A study of Mus musculus with 27 samples.

Results

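The CCAAT/enhancer binding proteins (C/EBPs) form a family of transcription factors, and 4 of its genes, Cebpa, Cebpb, Cebpd and Cebpg, were followed here through a rosiglitazone time course in mouse fat cells. Members were chosen by name. Each had 1 probe set annotated to its symbol alone, and all 4 were measured among the 18781 genes of the table. The cells were mature 3T3-L1 adipocytes, which arise in culture from a mouse preadipocyte line after exposure to dexamethasone, insulin and isobutylmethylxanthine. There were 9 groups with 3 Affymetrix arrays each, 27 in all. The first held untreated cells (time 0), the others cells kept in 1 µM rosiglitazone for 30 min, 1 h, 2 h, 6 h, 12 h, 24 h, 36 h or 48 h. Rosiglitazone, given in DMSO, is an agonist of PPARγ, the nuclear receptor at the centre of fat cell gene expression. The design text speaks of DMSO-treated cells, but none of the samples used here carries that label, so drug, vehicle, handling and time in culture cannot be told apart. Nothing in the labels says whether replicates were separate cultures, so p-values reflect how far these arrays differ from one another, perhaps for technical reasons.

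C/EBP proteins carry a basic region that contacts DNA and a leucine zipper through which they pair with one another. In the textbook account of fat cell formation, hormones first induce C/EBPβ and C/EBPδ, which then switch on the genes of C/EBPα and PPARγ. C/EBPα and PPARγ afterwards maintain each other's expression and together occupy many fat cell genes. C/EBPγ lacks a strong activation domain and mainly acts as a dimer partner of the others. The comparisons with untreated cells ask whether the levels of these mRNAs moved when PPARγ was activated in cells that had already differentiated.

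The stretches around the start sites are shown because they are the DNA through which these genes are read out, and because the 3 differ in the short motifs they hold. Each line gives 250 bases before and 50 after the RefSeq start, 5′ to 3′ on the gene's strand, from assembly GRCm38.p6. They lie at chr7:35119043-35119342 on the plus strand (Cebpa), chr2:167688665-167688964 on the plus strand (Cebpb) and chr7:35056517-35056816 on the minus strand (Cebpg). Capitals mark every match, on either strand, to 1 of 6 searched motifs: TTGCG, a C/EBP half-site; TTNNGNAA, a loose C/EBP site; TGACG, the half-site of CREB factors; CCAAT, the box that NF-Y binds; TATAAA, the TATA box; and the consensus of DR1, the element that PPARγ and RXR bind.
Cebpa: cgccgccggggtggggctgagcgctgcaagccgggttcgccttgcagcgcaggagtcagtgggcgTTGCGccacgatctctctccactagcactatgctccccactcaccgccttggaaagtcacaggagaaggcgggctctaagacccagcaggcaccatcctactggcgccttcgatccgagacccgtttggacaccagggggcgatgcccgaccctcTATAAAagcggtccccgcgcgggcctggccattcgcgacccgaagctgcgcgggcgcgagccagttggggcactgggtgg
Cebpb: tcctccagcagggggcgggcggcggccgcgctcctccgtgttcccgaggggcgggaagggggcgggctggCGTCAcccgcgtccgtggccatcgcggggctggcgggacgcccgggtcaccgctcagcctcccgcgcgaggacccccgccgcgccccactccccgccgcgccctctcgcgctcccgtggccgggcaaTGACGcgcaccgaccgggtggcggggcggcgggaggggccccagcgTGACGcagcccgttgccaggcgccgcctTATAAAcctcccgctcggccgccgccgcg
Cebpg: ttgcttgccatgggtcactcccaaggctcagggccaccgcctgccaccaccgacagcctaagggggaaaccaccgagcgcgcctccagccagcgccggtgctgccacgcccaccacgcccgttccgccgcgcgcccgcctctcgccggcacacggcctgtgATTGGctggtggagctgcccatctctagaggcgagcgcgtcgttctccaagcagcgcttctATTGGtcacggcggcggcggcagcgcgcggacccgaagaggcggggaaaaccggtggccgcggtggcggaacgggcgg

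The Cebpa stretch holds a TTGCG at position -185 relative to the start and a TATAAA at -30. The Cebpb stretch holds TGACG 3 times, at -180, -53 and -7 with the first of them on the opposite strand, and a TATAAA that begins just after the annotated start. The Cebpg stretch holds CCAAT on the opposite strand at -89 and -28, and neither TATAAA nor TGACG. No motif overlapped another in these windows, and TTNNGNAA and DR1 had no match in them. Among 32851 RefSeq promoter stretches of the same length, TTGCG occurred in 17.4%, TTNNGNAA in 40.7%, TGACG in 20.8%, CCAAT in 37.4%, TATAAA in 13.6% and DR1 in 0.0396%. A match is a description of these letters and not a binding site. The windows are rich in G and C, with 67.3% for Cebpa, 80.7% for Cebpb and 71.7% for Cebpg.

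Values below are log2 intensities, so a difference of 1 is a doubling of signal, and changes are treated minus untreated with the standard error of the fit (n = 3 arrays per group). A gene was called higher or lower where limma's adjusted p over all genes was below the threshold of 0.05. By limma's F-test over the 8 comparisons with untreated cells, which 40.5% of all genes passed, Cebpa (adjusted p = 7.14e-05), Cebpd (adjusted p = 0.00106) and Cebpb (adjusted p = 0.00168) changed over the course. Cebpg was not called (adjusted p = 0.258), although with each array centred on its median it was (adjusted p = 0.0412). Such centring moves all genes of an array by the same amount. Cebpa was higher from 2 h to 36 h, Cebpb was highest at 2 h, and Cebpd was lowest at 1 h. The span between the lowest and the highest group mean was 0.41 for Cebpa, 0.62 for Cebpb, 0.74 for Cebpd and 0.25 for Cebpg, against a pooled SD within groups of 0.088, 0.13, 0.18 and 0.092 for the same genes.

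**Figure D1:**
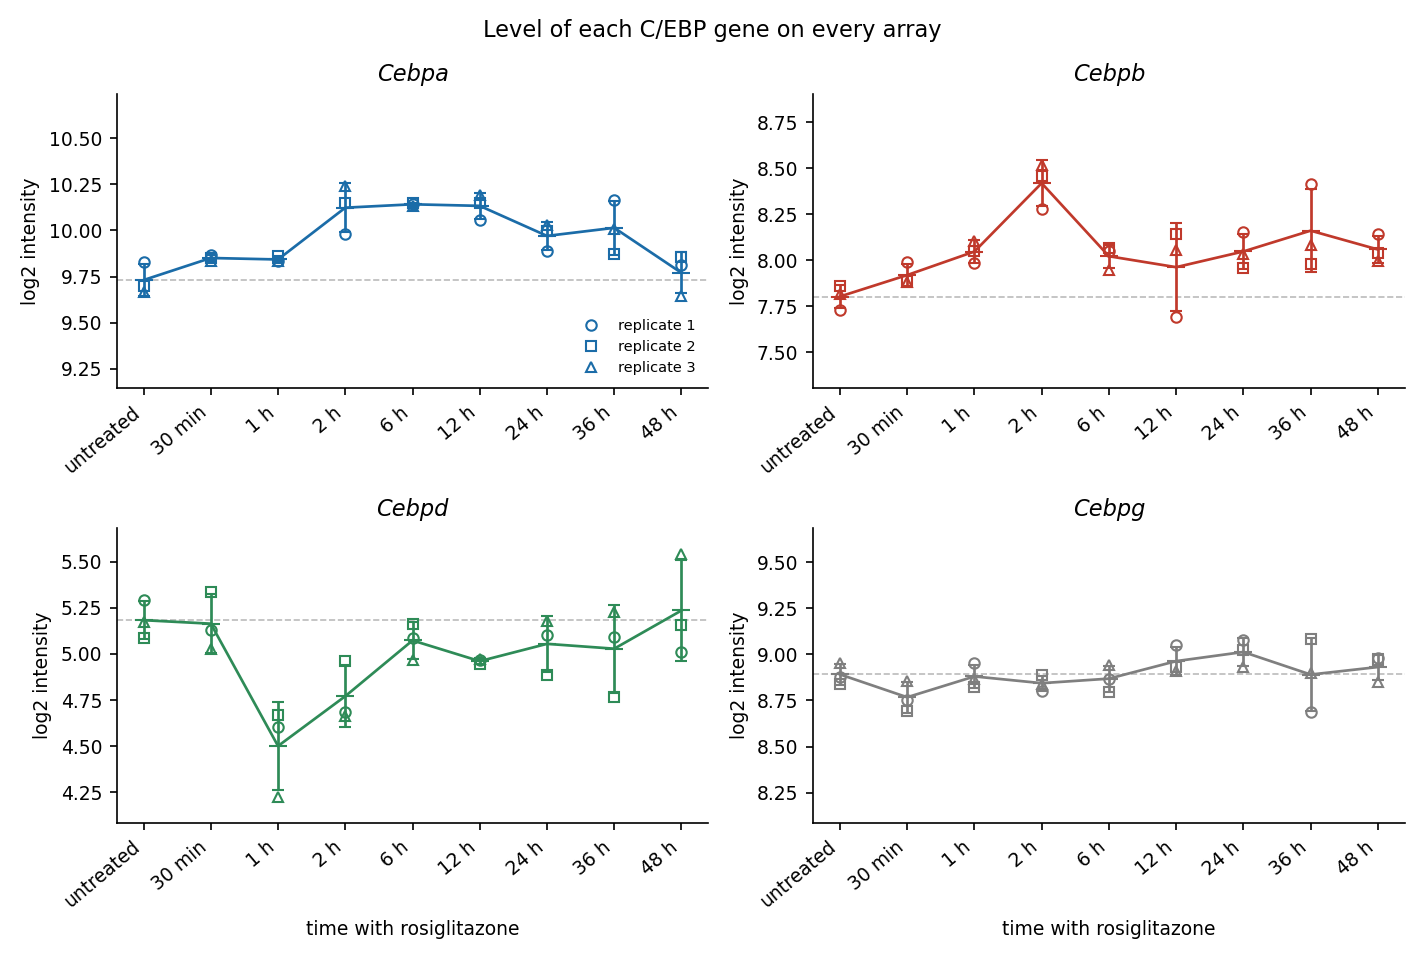
Log2 intensity of Cebpa, Cebpb, Cebpd and Cebpg on each of the 27 arrays, by time with rosiglitazone, with untreated cells at the left; symbols are replicates, the line joins group means, bars are the SD of 3 arrays and the dashed line is the untreated mean. Every panel spans the same number of log2 units, and the 1 h arrays of Cebpd and the 2 h arrays of Cebpb stand apart from the untreated ones.

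Cebpa, which encodes the factor that maintains the mature fat cell state, was moderately higher for most of the course. Untreated arrays read 9.83, 9.70 and 9.67, and the 3 arrays read 9.87, 9.85 and 9.83 at 30 min and 9.83, 9.86 and 9.83 at 1 h. The arrays read 9.98, 10.15 and 10.24 at 2 h, 10.14, 10.15 and 10.13 at 6 h, and 10.06, 10.15 and 10.19 at 12 h. All 9 of these lay above every untreated array and above every array of 30 min and 1 h. Levels were 9.89, 9.996 and 10.03 at 24 h, 10.16, 9.87 and 10.01 at 36 h, and 9.81, 9.85 and 9.64 at 48 h. The 48 h arrays, with a mean of 9.77, overlapped the untreated ones, with a mean of 9.73.

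Against untreated cells, Cebpa rose by 0.39 ± 0.075 at 2 h (adjusted p = 0.00124), a 1.31-fold difference, when 5.91% of all genes were called. Its 6 h level was higher by 0.41 ± 0.075 (adjusted p = 0.000313), beside 16.6% of genes called. The 12 h level was higher by 0.40 ± 0.075 (adjusted p = 0.000332), beside 18.9%. The 24 h change of 0.24 ± 0.075 was called (adjusted p = 0.0232), beside 20.7% of genes. So was the 36 h change of 0.28 ± 0.075 (adjusted p = 0.00717), beside 21.4%. At 48 h the change was 0.039 with a 95% interval from -0.12 to 0.19 and was not called (adjusted p = 0.772), while 24% of genes were. The step from 1 h to 2 h, 0.28 ± 0.075, missed the threshold (adjusted p = 0.0517), with 1.88% of genes called in that step. The calls at 2 h, 6 h and 12 h were kept without any 1 of the 6 arrays compared. That at 2 h was lost without replicate 2 (adjusted p = 0.0904) or replicate 3 (adjusted p = 0.151) of every group. The call at 24 h was lost without the 24 h replicate 2 (0.23, adjusted p = 0.0764) or 3 (0.21, adjusted p = 0.0897) and without the untreated replicate 2 (0.22, adjusted p = 0.082) or 3 (0.21, adjusted p = 0.104). It was also lost without replicate 2 (adjusted p = 0.236) or 3 (adjusted p = 0.279) of every group, after further quantile normalisation (0.17, adjusted p = 0.114) and with the 30 min arrays as the baseline (0.12, adjusted p = 0.294). That at 36 h was lost without the 36 h replicate 1 (0.21, adjusted p = 0.0611), without replicate 3 of every group (adjusted p = 0.0999), with the 6 compared arrays alone (adjusted p = 0.0753) and with the 30 min baseline (0.16, adjusted p = 0.13).

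Cebpb encodes the factor that acts early in fat cell formation and also serves inflammatory and hormone responses. It had a short peak. Untreated arrays read 7.73, 7.86 and 7.82, followed by 7.99, 7.89 and 7.88 at 30 min, 7.99, 8.05 and 8.11 at 1 h, and 8.28, 8.46 and 8.52 at 2 h. Each 2 h array exceeded every array of the earlier groups. The arrays read 8.05, 8.07 and 7.95 at 6 h and 7.69, 8.14 and 8.05 at 12 h. They read 8.15, 7.96 and 8.03 at 24 h, 8.41, 7.98 and 8.09 at 36 h, and 8.14, 8.04 and 7.99 at 48 h. From 6 h on, levels lay between the untreated and the 2 h values, apart from the 12 h replicate 1, which fell below all untreated arrays, and the 36 h replicate 1, which lay within the 2 h range.

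Against untreated cells, Cebpb rose by 0.62 ± 0.10 at 2 h (adjusted p = 0.000219), a 1.53-fold difference that was the 80th highest among the 18781 genes. The 6 h level was below the 2 h level by a log2 difference of -0.40 ± 0.10 (adjusted p = 0.0122), a step in which 9.16% of genes were called. Its change at 36 h, 0.36 ± 0.10, was called (adjusted p = 0.0116). The other late changes were not called. They were 0.22 for 6 h (adjusted p = 0.158), 0.16 for 12 h (adjusted p = 0.323), 0.24 for 24 h (adjusted p = 0.0945) and 0.26 for 48 h (adjusted p = 0.0702). The 30 min and 1 h changes of 0.12 and 0.24 were not called either (adjusted p = 0.779 and 0.393), where 0.0479% and 0.99% of all genes were. Without any 1 array the 2 h call was kept, but without replicate 3 of every group it just missed (0.57, adjusted p = 0.0512). The decline from 2 h to 6 h was not called without the 2 h replicate 2 (adjusted p = 0.0528), the 2 h replicate 3 (adjusted p = 0.0663) or the 6 h replicate 3 (adjusted p = 0.063), nor without replicate 2 or 3 of every group (adjusted p = 0.116 and 0.303). The 36 h call was lost without the 36 h replicate 1 (0.23, adjusted p = 0.108) or the untreated replicate 1 (0.32, adjusted p = 0.0529). It was also lost without replicate 1 or 3 of every group (adjusted p = 0.0804 and 0.0806), with the 6 compared arrays alone (adjusted p = 0.0611) and with the 30 min baseline (0.24, adjusted p = 0.0932). The 12 h change was called without the 12 h replicate 1 (0.295, adjusted p = 0.041).

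Cebpd, the partner of Cebpb in the early phase of fat cell formation and a known glucocorticoid and cytokine responsive gene, was lowest at 1 h. It was also the dimmest member, with readings from 4.23 to 5.54 where array medians were 4.02 to 4.13. Untreated arrays read 5.29, 5.09 and 5.17 and the 30 min arrays 5.13, 5.34 and 5.03. At 1 h the arrays read 4.61, 4.67 and 4.23, and at 2 h 4.69, 4.96 and 4.66. All 6 lay below every untreated and every 30 min array. The arrays read 5.09, 5.16 and 4.97 at 6 h, 4.97, 4.94 and 4.97 at 12 h, 5.10, 4.88 and 5.18 at 24 h, 5.09, 4.76 and 5.23 at 36 h, and 5.01, 5.16 and 5.54 at 48 h. Except at 12 h, whose arrays lay just below the untreated ones, these later groups overlapped the untreated arrays.

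Against untreated cells, Cebpd fell at 1 h, with a change of -0.68 ± 0.13 (adjusted p = 0.0063), to 62.3% of the untreated signal, the 18th lowest change among the 18781 genes. It also fell between 30 min and 1 h, with a change of -0.66 ± 0.13 (adjusted p = 0.0171) where 0.623% of genes were called. At 2 h the change of -0.41 ± 0.13 was not called (adjusted p = 0.0676), although it was without the 2 h replicate 2 (-0.51, adjusted p = 0.0469). From 6 h to 48 h the changes lay between -0.22 and 0.053, with adjusted p of 0.284 or higher. The mean of 24 h, 36 h and 48 h was higher than the mean of 30 min, 1 h and 2 h by 0.29 ± 0.076 (adjusted p = 0.00297), a contrast that leaves out the untreated arrays and in which 36.5% of genes were called. That call was lost without replicate 3 of every group (0.10, adjusted p = 0.34). The 1 h call was lost without the 1 h replicate 3 (-0.55, adjusted p = 0.0874) or the untreated replicate 1 (-0.63, adjusted p = 0.0548), and without replicate 1 (adjusted p = 0.166) or replicate 3 (adjusted p = 0.112) of every group. The step from 30 min to 1 h was not called without the 1 h replicate 3 (-0.53, adjusted p = 0.144) or the 30 min replicate 1 (-0.68, adjusted p = 0.0502) or 2 (-0.58, adjusted p = 0.132), nor without replicate 1, 2 or 3 of every group (adjusted p from 0.119 to 0.171). In the RefSeq annotation the end of Cebpd overlaps that of Spidr, a DNA repair gene, whose own probe set changed by 0.044 at 1 h (adjusted p = 0.917).

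Cebpg, the dimer partner without a strong activation domain, varied least. Its group means ran from 8.77 at 30 min to 9.01 at 24 h, with 8.89 ± 0.058 in untreated cells (SD, n = 3), and at each of the 8 times its arrays overlapped the untreated ones. Its changes lay between -0.12 at 30 min and 0.12 at 24 h, with adjusted p from 0.32 to 0.995. At 48 h the 95% interval of its change ran from -0.12 to 0.20. With the 30 min arrays as the baseline, the 24 h level was called higher (0.25, adjusted p = 0.0211). The late against early contrast gave 0.11 ± 0.045 and passed narrowly (adjusted p = 0.0474), and it was lost with the replicate block (adjusted p = 0.0694), after further quantile normalisation (adjusted p = 0.0821) and without replicate 1, 2 or 3 of every group (adjusted p = 0.0611, 0.477 and 0.0716). That contrast was also lost without any 1 of 12 of the 18 arrays in it, with an adjusted p of up to 0.128 without the 36 h replicate 2. Cebpe, the myeloid member of the family, gave group means of 3.44 to 3.59, below the array medians, and its largest change was 0.10 at 36 h.

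**Figure D2:**
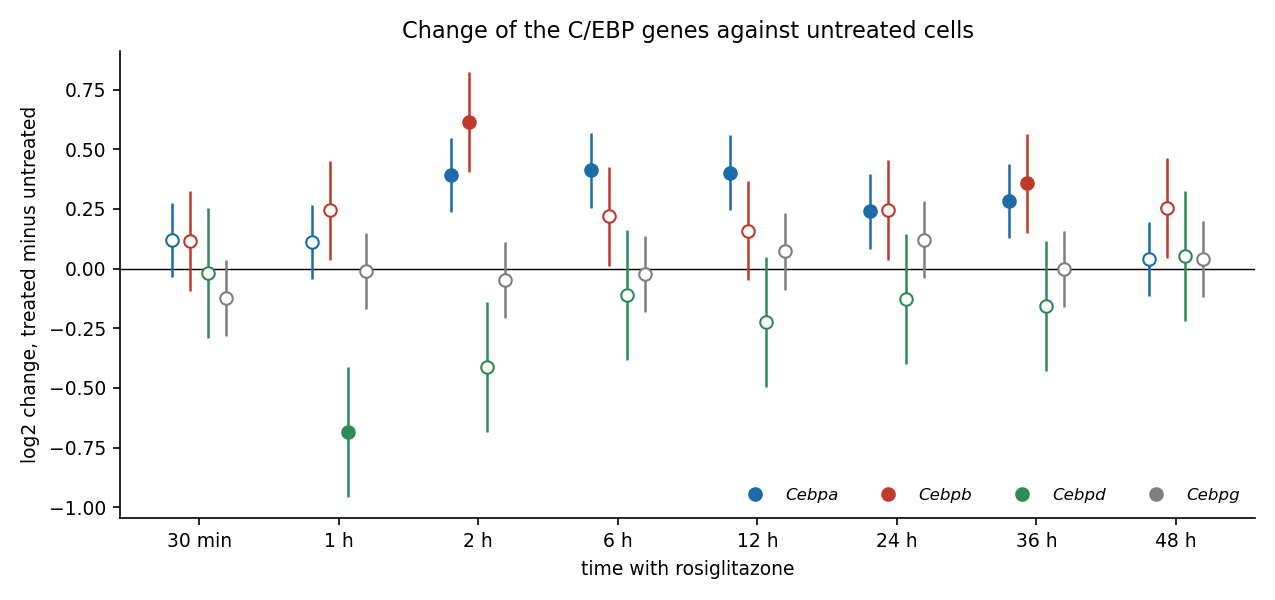
Log2 change of the 4 genes at each time, treated minus untreated, with the 95% interval from limma (vertical lines); filled points were called at an adjusted p below 0.05. Cebpa is filled from 2 h to 36 h, Cebpb at 2 h and 36 h, Cebpd at 1 h, and Cebpg nowhere.

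The 8 comparisons share the same 3 untreated arrays, so they are not independent views of a gene. Arrays of Cebpa all lay above the untreated ones at 7 of 8 times, those of Cebpb at 7 of 8, and those of Cebpd all below at 3 of 8. Between 15.5% and 36% of all genes had arrays that did not overlap the untreated ones at a given time (15.5% for 30 min, 16.6% for 1 h, 24.7% for 2 h, 32.4% for 6 h, 32% for 12 h, 35.2% for 24 h, 31.2% for 36 h and 36% for 48 h). Whether 2 members changed by different amounts was tested on the difference between them within each array. Over 30 min to 2 h, the change of Cebpb exceeded that of Cebpg by 0.39, with all 9 treated arrays above the 3 untreated ones (exact permutation p = 0.0182, two-sided, adjusted p = 0.12 over 12 tests). The change of Cebpb exceeded that of Cebpd by 0.70 (exact permutation p = 0.0409, adjusted p = 0.12), and that of Cebpa exceeded that of Cebpd by 0.58 (exact permutation p = 0.0318, adjusted p = 0.12). With the 30 min arrays alone, the difference between Cebpb and Cebpd was 0.14. The difference between Cebpa and Cebpg was 0.27 (exact permutation p = 0.0273, adjusted p = 0.12). None of the 12 pairwise differences passed the adjusted threshold. The smallest p this design allows is 0.00455, and a single pair at that p could not have passed after adjustment over 12 tests. The tests therefore cannot show that the members changed alike. Over 24 h to 48 h the differences lay between -0.13 and 0.36 (exact permutation p from 0.05 to 0.486).

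Correlation over the 9 group means described which courses were alike, with no test, since the points share arrays and controls. Among the 4 members it ran from -0.45, between Cebpb and Cebpd, to 0.52, between Cebpa and Cebpb (Spearman -0.37 and 0.23). Among the 7610 other genes that passed the F-test, the 5 courses most like that of Cebpa were those of Gpt (alanine aminotransferase, r = 0.97), Tmem131l (r = 0.97), the adhesion receptor gene Adgrg1 (r = 0.96), Cyth1 (a guanine nucleotide exchange factor for ARF proteins, r = 0.96) and Nelfcd (a subunit of the negative elongation factor, r = 0.95), with Spearman values from 0.90 to 0.98. Those most like Cebpb were Fam53b (r = 0.95), Chst15 (a chondroitin sulfotransferase, r = 0.94), Prr5l (r = 0.91), Fsd2 (r = 0.91) and Ucp3 (a mitochondrial uncoupling protein homologue, r = 0.91), with Spearman values from 0.75 to 0.87. Those most like Cebpd were Olfr826 (an olfactory receptor, r = 0.95), Zscan2 (r = 0.91), Csrnp2 (r = 0.91), the microRNA locus Mir181b-1 (r = 0.90) and Zfp790 (r = 0.89). Their rank correlations were lower, from 0.50 to 0.85. Those most like Cebpg were Ppp1cb (a catalytic subunit of protein phosphatase 1, r = 0.97), Paip2 (r = 0.94), Ugp2 (which makes UDP-glucose, r = 0.94), Csnk1a1 (casein kinase 1 alpha, r = 0.94) and Ccdc47 (r = 0.93). Their Spearman values ran from 0.72 to 0.97, and Cebpg itself did not pass the F-test.

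Proteins that pair with C/EBPs, bind them or bring about their degradation were followed as a list of 18 genes, 16 of them measured. This list and those below were chosen with earlier results of these data known, so their counts are a description and not a test. Of the 16, none was called higher at 2 h and 7 were called lower, against 3.04% higher and 2.87% lower among all genes, and the list's median change was -0.16 beside -0.0045 for all genes. The 3 Tribbles genes were among those 7. Trib1 and Trib2 encode pseudokinases that deliver C/EBPα to the ubiquitin ligase COP1. Trib2 averaged 4.85 at 2 h and 5.95 in untreated cells, a change of -1.10 ± 0.13 (adjusted p = 3.77e-06), and Trib1 averaged 4.79 at 2 h and 5.83 in untreated cells, a change of -1.04 ± 0.15 (adjusted p = 4.55e-05). Trib3, a stress-induced relative, changed by -0.61 ± 0.099 (adjusted p = 0.00019), and Nfil3, a basic leucine zipper repressor, by -0.75 ± 0.081 (adjusted p = 6.81e-07). The other 3 called lower at 2 h were Runx1t1, Atf4 and Gata3. These decreases stood beside the highest level of Cebpb and the raised level of Cebpa, and their part in those levels was not tested. The 7 numbered 4 without replicate 2 or replicate 3 of every group.

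At 48 h 5 of the 16 were lower and none was higher, against 11.4% and 12.6% of all genes. Id2, which blocks DNA binding by helix-loop-helix factors, changed by -1.37 ± 0.27 (adjusted p = 0.000373). Trib1 was still lower, with a change of -0.64 ± 0.15 (adjusted p = 0.00225). Runx1t1, a corepressor that binds C/EBPβ, changed by -0.36 (adjusted p = 0.0116, and 0.0646 without the 48 h replicate 1 or 0.0579 without the untreated replicate 1). Trib3 changed by -0.33 (adjusted p = 0.0149, and 0.133 without the 48 h replicate 1 or 0.0774 without the untreated replicate 2). The fifth was Nfil3. Without the 48 h replicate 1 the count was 3, and without replicate 1 or replicate 2 of every group it was 2, with Trib1 not called without replicate 2 (adjusted p = 0.0606).

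A list of 14 factors of early fat cell formation, drawn up around the induction of Cebpb and Cebpd, was also followed, with all measured. Not every factor in it is established as an inducer of these genes. At 2 h, 1 was higher and 3 were lower (median -0.062), against 3.04% higher and 2.87% lower among all genes. Egr2, also known as Krox20, which cooperates with Klf4 in inducing Cebpb, averaged 4.30 at 2 h and 5.61 in untreated cells, a change of -1.31 ± 0.21 (adjusted p = 0.000172). Klf4 changed by -0.73 ± 0.15 (adjusted p = 0.00224, and 0.105 without replicate 3 of every group). Zfp467, a zinc finger factor that favours fat over bone cells, changed by -0.63 ± 0.078 (adjusted p = 5.19e-06). Cebpb was at its highest in the same arrays in which Egr2 and Klf4 were lower, and their part in its level was not tested. Stat5a rose by 0.27 (adjusted p = 0.0372), a call that was lost without any 1 of the 6 arrays compared (adjusted p from 0.0833 to 0.124). At 48 h 2 of the 14 were higher and 2 lower, close to the 12.6% higher and 11.4% lower among all genes. Ebf2, an early B cell factor of the brown fat programme, rose by 0.42 ± 0.093 (adjusted p = 0.00124), and Crem, a cAMP response factor gene, by 0.30 ± 0.066 (adjusted p = 0.00142). Zfp467 changed by -0.32 ± 0.078 (adjusted p = 0.00297) and Egr2 by -0.72 ± 0.21 (adjusted p = 0.0134). That call of Egr2 was lost without the 48 h replicate 2 or 3 or the untreated replicate 3 (adjusted p = 0.0954, 0.0873 and 0.106), and its change ran from -1.23 without replicate 1 of every group to -0.38 without replicate 3. Without replicate 1 of every group that of Zfp467 at 48 h was lost (adjusted p = 0.135), and without replicate 2 that of Crem (adjusted p = 0.152).

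**Figure D3:**
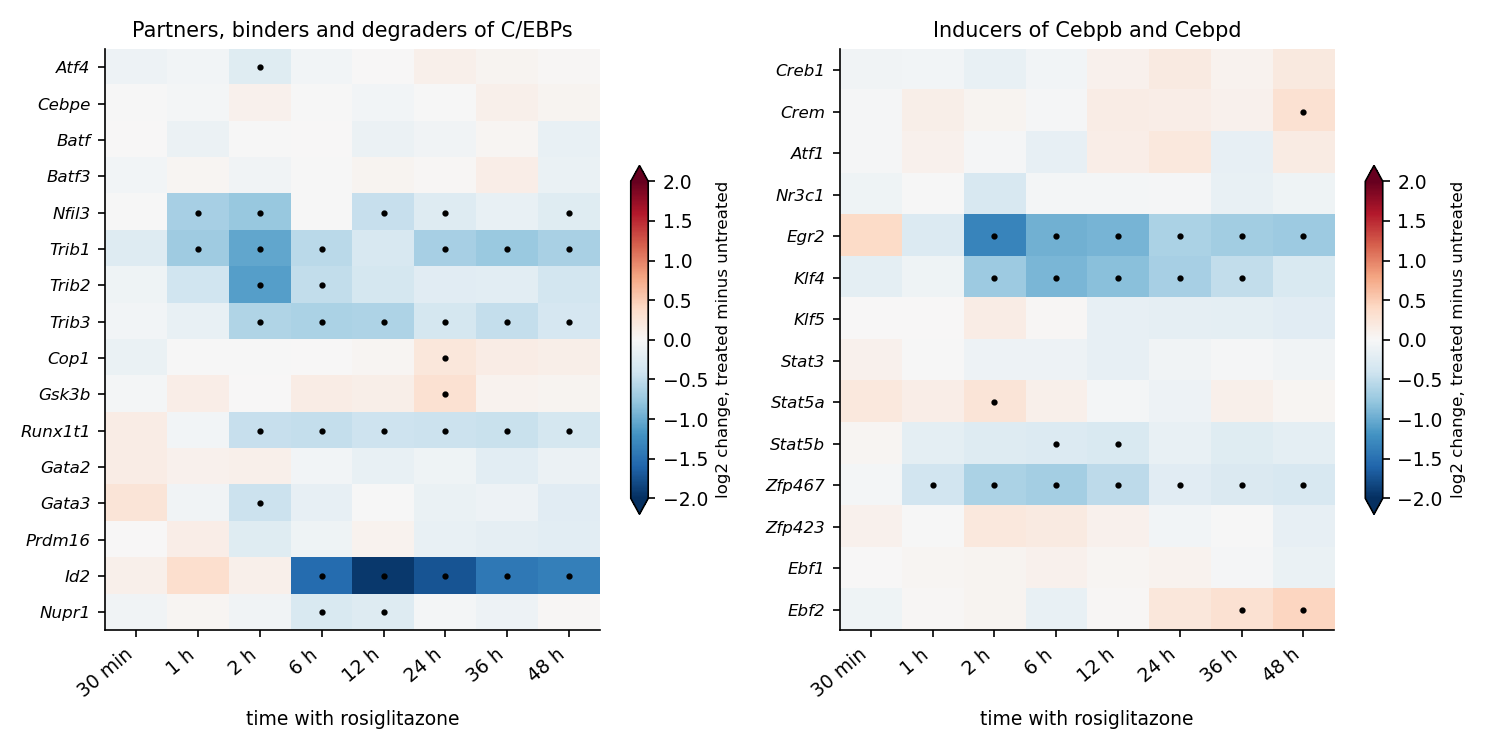
Log2 change at each time, treated minus untreated, of 16 measured partners, binders and degraders of C/EBPs (left) and 14 early factors (right). The right panel is headed as inducers of Cebpb and Cebpd, although not all 14 are established as such. Black dots mark changes called by limma. The Tribbles genes, Egr2 and Klf4 are lower at 2 h, and Id2 is lower from 6 h on.

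Of 20 adipocyte genes listed for C/EBP sites in their promoters, 19 were measured and moved in both directions. The sites of these genes were not checked here. At 2 h 2 were higher and 2 lower, at 24 h 8 were higher and 7 lower, and at 48 h 4 were higher and 8 lower, with median changes of 0.0041, 0.11 and -0.089. Among all genes, 3.04% were higher and 2.87% lower at 2 h, 10.1% and 10.5% at 24 h, and 12.6% and 11.4% at 48 h. Pparg, whose product shares many sites with C/EBPα, averaged 10.87 at 2 h and 11.50 in untreated cells, a change of -0.63 ± 0.049 (adjusted p = 4.41e-09) in the arrays in which Cebpa was higher by 0.39. The 48 h change of Pparg was -0.30 ± 0.049 (adjusted p = 5.55e-05). Pck1, the glyceroneogenic enzyme and a direct PPARγ target, averaged 10.65 at 48 h and 8.62 in untreated cells. Agpat2, which makes phosphatidic acid for fat storage, rose by 0.29 at 2 h (adjusted p = 0.0118, but 0.0661 without the 2 h replicate 3, 0.0746 without the untreated replicate 1, and 0.0889 to 0.157 without 1 replicate of every group). Lep, which encodes leptin and has a C/EBP site in its promoter, averaged 4.42 at 2 h and 5.61 in untreated cells, and 3.87 at 48 h; the 2 h call was lost without replicate 2 of every group (adjusted p = 0.124). The 4 called higher at 48 h numbered 2 without the 48 h replicate 1. Agt, the angiotensin precursor, changed by -0.86 ± 0.072 at 48 h (adjusted p = 1.95e-09) and Irs1, an insulin receptor substrate, by -0.51 ± 0.074 (adjusted p = 8.03e-06). Adipoq, Lpl and Slc2a4 were not called at any time.

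Of 18 acute-phase and inflammatory genes listed for C/EBP sites, which were not checked here either, 16 were measured. None was called at 2 h, and 9 were lower and 1 higher at 48 h, against 11.4% lower and 12.6% higher among all genes. Their median change was -0.06 at 2 h and -0.74 at 48 h, beside 0.013 for all genes at 48 h. Hp, which encodes haptoglobin, averaged 8.49 at 48 h and 10.45 in untreated cells (-1.97 ± 0.088, adjusted p = 4.5e-14). Orm2, an acid glycoprotein gene whose probes may also read Orm1 and Orm3, averaged 4.35 at 48 h and 7.02 in untreated cells (-2.67 ± 0.17, adjusted p = 2.47e-11). Itih4, an inter-alpha-trypsin inhibitor chain, changed by -1.66 ± 0.12 (adjusted p = 2.33e-10) and Cp, the copper oxidase ceruloplasmin, by -1.06 ± 0.083 (adjusted p = 4.93e-10). The gene that rose at 48 h was Ptgs2, the inducible cyclooxygenase (0.58, adjusted p = 0.000355), which had been lower at 6 h. Saa2, Saa3, Il6, Csf3 and Nos2 read between 2.17 and 3.49 in untreated cells and were not called at any time. Of the 4 C/EBP genes followed, none was called lower at 24 h or 48 h, beside 10.5% and 11.4% of all genes. None was called lower at 36 h either, when 21.4% of all genes were called in either direction. Counts among 4 genes are too small to set against these shares. Only mRNA was measured, and the part of C/EBPs in the decreases of these acute-phase genes was not tested.

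**Figure D4:**
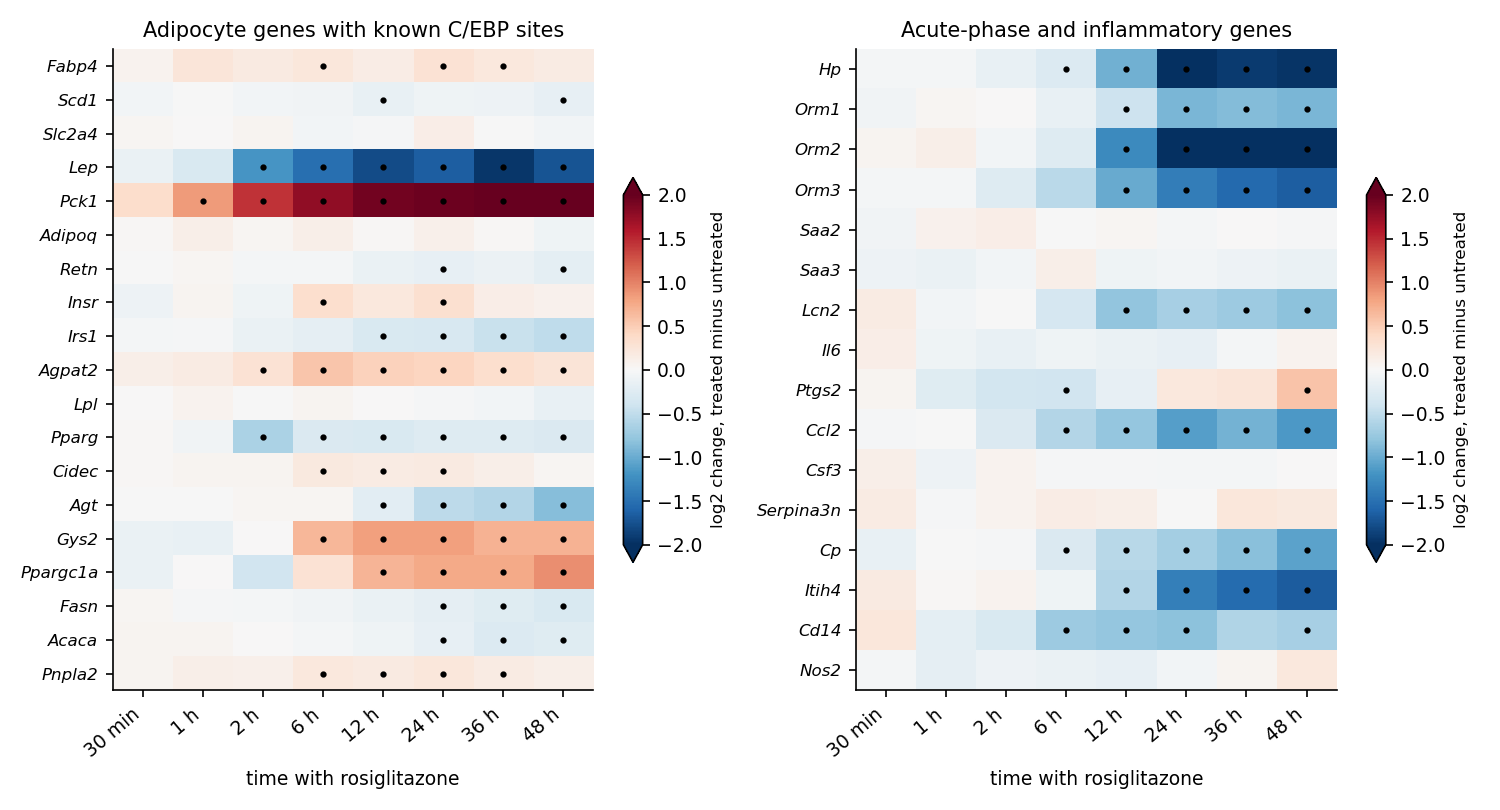
Log2 change at each time, treated minus untreated, of the 19 measured adipocyte genes (left) and the 16 measured acute-phase and inflammatory genes (right) listed for C/EBP sites. Black dots mark changes called by limma. The colour scale ends at 2 in either direction. Hp and Cp are lower from 6 h to 48 h and Orm2 and Itih4 from 12 h to 48 h, while Pck1 is higher from 1 h on and Lep lower from 2 h on.

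Among 25 measured transcription factors of the fat cell programme, 6 were lower and 1, Stat5a, was higher at 2 h. Leaving out replicates, 1 array or 1 of every group, gave 4 to 6 lower and 0 higher at that time. At 48 h 10 were lower and 2 higher, with a median change of -0.21. This list shares members with the one drawn up around the induction of Cebpb and Cebpd. Among all genes 2.87% were lower and 3.04% higher at 2 h, and 11.4% lower and 12.6% higher at 48 h. Without replicate 2 or replicate 3 of every group, 6 were lower at 48 h, and the 2 that were higher numbered 1 without the 48 h replicate 1 or 2 or without any 1 of the untreated replicates 1 and 2. Besides Pparg, Zfp467 and Egr2, Klf15, which promotes fat cell gene expression, was lower by 2 h (-0.40 ± 0.07, adjusted p = 0.000399), and its 48 h change was -0.59 ± 0.07 (adjusted p = 5.04e-07). Xbp1, a factor of the unfolded protein response, changed by -0.44 ± 0.056 at 48 h (adjusted p = 1.3e-06), and Srebf1, which drives lipid synthesis genes, by -0.41 ± 0.061 (adjusted p = 1.57e-05). Cebpa was called higher at 2 h, 6 h, 12 h, 24 h and 36 h, at each of which Pparg was called lower.

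The cells carried the markers of the labelled type. The mean level of 9 adipocyte markers, a list that includes Cebpa and Pparg, lay between 11.21 and 11.47 on all arrays, with 11.21 to 11.35 at 48 h and 11.34 to 11.38 in untreated cells. The mean of 7 measured preadipocyte and fibroblast markers lay between 7.80 and 7.84 at 48 h and between 8.14 and 8.18 in untreated cells, and 5 of the 7 were lower at 48 h, against 11.4% of all genes. At the times at which Cebpa was called higher, 1 of the 7 was lower at 2 h, 2 at 6 h and 3 at 12 h. At 24 h 6 were lower, and at 36 h 4. Among all genes, 2.87% were lower at 2 h and 10.5% at 24 h. In either direction, 16.6% of all genes were called at 6 h, 18.9% at 12 h and 21.4% at 36 h. The mean of the 7 markers lay between 7.73 and 7.86 on the 24 h arrays. The mean of 5 macrophage markers was 3.32 to 3.62 on all arrays, and Adgre1, a defining marker, averaged 2.72 at 48 h and 2.68 in untreated cells. Of the 5, Cd68 was lower at 6 h (4.62, against 5.02 in untreated cells, adjusted p = 0.0161) and 12 h (4.48, adjusted p = 0.0012), and no other was called at any time. Fewer cells of a type and less RNA per cell cannot be told apart in such bulk samples, and the part of these markers in the changes of the C/EBP genes was not tested.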

How the data were processed

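RNA of 3T3-L1 adipocytes was hybridised to 27 Affymetrix Mouse Gene 1.1 ST arrays. The deposited table holds, for each probe set, a log2 intensity, with values running from 1.67 to 13.19. Partek and RMA (a method of background correction, normalisation and summarisation) are named, without versions or roles, in the submitters' processing notes. The build of the array annotation is not given in the sources used here. The annotation named 1 symbol for 21153 of 28815 probe sets, several for 1867 and none for 5795. The probe set with the highest mean was kept for each of 18781 genes, and no dim genes were left out. Group means were fitted with limma 3.58.1 (lmFit, eBayes) in R 4.3.3 without covariates, tests were two-sided, and p-values were adjusted over all genes by Benjamini-Hochberg. Differences between members were tested by exact permutation over arrays. Alternatives were a replicate block, other filters, scalings, variance models and baselines, array weights, and leaving out replicates. A check of the fit on simulated data was made, but its outcome is not given here. Tables and plots used Python 3.11.15, pandas 2.3.3, numpy 2.4.6 and matplotlib 3.10.9.

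Members and gene lists were chosen with earlier results of these data known. Genes were named by rule: the 4 members, up to 4 called genes per list with the smallest p at 2 h and at 48 h, and the 5 likest courses per member. Atf4, Gata3, Adipoq, Lpl, Slc2a4, Ptgs2, the dim inflammatory genes, Spidr and the markers are named outside it, after their values were seen. Of the listed genes, Ddit3, Atf5, Cfd, Saa1, C3 and Ly6a had no probe set with their symbol alone and were not analysed here. Arrays give no molecule counts, and their number limits the precision. Promoter sequences are from RefSeq, GRCm38.p6, with 3 of the 4 members matched. The motifs were chosen with these sequences in view.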

Additional observations from a re-analysis of the deposited data

How the results depend on the processing

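Arrays with the same replicate number were not more alike than arrays with different numbers. Deviations from group means were compared between arrays of different groups. Of 108 pairs with the same replicate number, 3 correlated above 0.1 (median -0.13). Of 216 pairs with different numbers, 70 did (median 0.051). Deviations cancel out within a group of 3 arrays, so the 2 sets of pairs are not independent of each other. A block on the replicate number does not account for deviations shared by such pairs. With the replicate number as a block, the F-test gave an adjusted p of 0.000311 for Cebpa, 0.00439 for Cebpb, 0.00271 for Cebpd and 0.365 for Cebpg, and among the members and the named genes the block ended 2 calls, the late contrast of Cebpg (adjusted p = 0.0694) and Stat5a at 2 h (adjusted p = 0.0684).

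Leaving out replicates, 1 array or 1 of every group, gave log2 changes of 0.30 to 0.51 for Cebpa and 0.56 to 0.68 for Cebpb at 2 h, and an F of 2.64 to 12.58 for Cebpb, whose adjusted p was 0.13 without replicate 3 of every group. The change of Cebpd ranged over -0.15 to 0.054 (30 min), -0.56 to -0.32 (2 h) and -0.11 to 0.22 (48 h). At 48 h Cebpa ranged from -0.019 to 0.10 and Cebpg from -0.0041 to 0.11. Other Cebpg changes ranged over -0.052 to 0.027 (1 h), -0.059 to 0.012 (6 h) and -0.12 to 0.10 (36 h). The late contrast ranged from -0.061 to 0.0077 for Cebpa and from -0.13 to 0.0090 for Cebpb. Of the 4 members, the number called was 0 to 1 (1 h), 0 to 3 (2 h), 1 to 2 (12 h), 0 to 1 (24 h) and 0 to 2 (36 h). The shares of all genes called in these settings and those below are not given. Such counts describe only how stable the calls were.

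Several settings moved results near the threshold. Cebpb at 48 h was called among genes above the median level, under trended and robust variances and with the 6 compared arrays alone (0.26 each), and with arrays centred on their medians (0.30), so 1 member was called at 48 h in these 4 settings. Cebpd at 2 h was called among the brighter genes, with the 6 arrays alone (-0.41 each) and with array weights (-0.37). Centring gave 2 members called at 6 h and 2 at 24 h, an F of 2.95 for Cebpg, Cebpg changes of 0.011 (1 h), 0.063 (6 h) and 0.079 (36 h), and late contrasts of 0.033 for Cebpa and 0.015 for Cebpb. Array weights turned the 36 h changes of Cebpd (0.0039) and Cebpg (0.0061). Members called were 0 at 24 h after further quantile normalisation, and 2 at 24 h and 0 at 36 h with the 6 arrays alone. With the 30 min arrays as baseline 0 were called at 36 h, Cebpa changed by -0.0080 at 1 h and -0.081 at 48 h, and Cebpg by 0.11 (1 h), 0.076 (2 h), 0.10 (6 h) and 0.12 (36 h). Requiring a 1.5-fold change as well left 1 member at 2 h and 0 for each of 6 h, 12 h, 24 h and 36 h. The contrasts between successive times and the late contrast were put through these settings after the data were seen. The causes of these shifts were not tested. Cebpd, the dimmest member, had the largest spread between arrays.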
